A study of Homo sapiens with 8 samples.

Results

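Olfactory receptor genes were followed on the arrays as genes expected to be silent in a kidney cell line. A probe set was taken where its single annotated symbol was OR, a number, 1 letter and a number, as in OR2H2. The rule used names only and no measured value. It gave 60 probe sets of 56 genes, of 44942 probe sets in all. The first array type held 40 of them, for 38 genes, among 22277 probe sets, and the second held 20, for 19 genes, among 22665. The cells were 786-O, an established line from a human clear cell kidney tumour that lacks working VHL, the part of the ubiquitin ligase that marks hypoxia-inducible factors for degradation. They were kept for 6 h in 25 μM pentamidine, an antimicrobial diamidine given for trypanosome, Leishmania and Pneumocystis disease, or in its vehicle, DMSO. Each array type had 2 pentamidine and 2 DMSO arrays, numbered 1 and 2 here, 8 arrays in all. All cells were of this 1 line. The labels call the samples biological duplicates and do not say whether the second array type carried the same RNA as the first, so the types were tested apart.

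Olfactory receptors are G protein-coupled receptors of the cilia of olfactory sensory neurons, where each neuron uses 1 receptor gene of the large family. Odorant binding activates the G protein subunit GNAL, which drives the adenylyl cyclase ADCY3, and cyclic AMP opens a cation channel whose subunits include CNGB1. Class I receptors, families 51 to 56, lie together on chromosome 11 near the beta-globin genes. Class II receptors lie in clusters on many chromosomes, 1 of which adjoins the major histocompatibility complex on chromosome 6. Most members are thought to be silent outside the nose, but OR51E1 and OR51E2 are known from prostate epithelium and OR1D2 from sperm. In the RefSeq gene table for GRCh38.p14 the naming rule finds 397 genes, 373 of them protein coding. All 60 probe sets matched that table by gene ID with the symbol unchanged, and it lists 1 of their genes, OR51J1, as a pseudogene. The first array type held 38 probe sets of class II and 2 of class I, with 13 on chromosome 6, 9 on chromosome 19 and 8 on chromosome 17. The second held 12 of class I and 8 of class II, with 13 on chromosome 11 and 4 on chromosome 6. OR51E2 was the 1 gene with probe sets on both types.

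Pentamidine sits in the DNA minor groove at AT-rich stretches, so the base composition of the members' promoters is given as background to the values. RefSeq promoters on GRCh38.p14, 250 bases before to 50 bases after each annotated start, were found for 31 of the 38 genes on the first array type (81.6%) and for 7 of the 19 on the second (36.8%). The second share is under 80%, so a check of composition is void there. On the first type the median AT content was 60.0%, between 28.7% and 75.7%, against 62.3% in the 296 promoters of all genes that the rule finds and 41.7% in all 27305 promoters. The motif AATT, which reads the same on both strands, occurred in 21 of the 31 promoters (67.7%). It occurred in 87.2% of the 296 and in 46.5% of all promoters. The motif TAATTA, which contains AATT and also reads the same on both strands, occurred in 5 of the 31 (16.1%). It occurred in 22.3% of the 296 and in 4.98% of all promoters. The promoters of the 3 genes with the largest differences on the first array type are printed, with AATT in capitals.
OR1F1, chr16:3187954-3188253, plus strand: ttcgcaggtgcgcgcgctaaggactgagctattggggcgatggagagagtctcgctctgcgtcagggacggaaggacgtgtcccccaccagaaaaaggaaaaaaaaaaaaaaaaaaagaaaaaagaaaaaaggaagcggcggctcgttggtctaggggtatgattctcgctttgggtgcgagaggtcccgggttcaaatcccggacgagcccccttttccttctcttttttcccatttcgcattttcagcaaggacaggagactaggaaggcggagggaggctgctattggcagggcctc
OR11A1, chr6:29457022-29457321, minus strand: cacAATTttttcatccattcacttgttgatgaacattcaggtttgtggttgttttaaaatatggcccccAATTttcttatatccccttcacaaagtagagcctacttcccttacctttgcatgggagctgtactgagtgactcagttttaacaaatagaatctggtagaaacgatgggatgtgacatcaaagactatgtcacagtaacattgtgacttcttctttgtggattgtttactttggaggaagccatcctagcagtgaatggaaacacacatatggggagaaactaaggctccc
OR2H2, chr6:29584871-29585170, plus strand: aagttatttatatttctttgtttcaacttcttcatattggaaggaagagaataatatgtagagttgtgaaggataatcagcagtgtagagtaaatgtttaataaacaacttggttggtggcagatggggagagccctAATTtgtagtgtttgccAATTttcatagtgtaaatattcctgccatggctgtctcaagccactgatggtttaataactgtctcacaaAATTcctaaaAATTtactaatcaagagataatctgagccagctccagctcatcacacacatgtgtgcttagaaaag
AATT occurred 0 times in the OR1F1 promoter, 2 times in that of OR11A1 and 4 times in that of OR2H2. Their AT contents were 47.0%, 60.0% and 64.3%. The OR1F1 promoter held 19 CpG dinucleotides, against a median of 2 over the 31 promoters. The OR11A1 window shares 183 bases with that of OR2H1 on the opposite strand. As a description over 33 probe sets, of which some share a promoter, Spearman's rho of AT content with the log2 fold change was -0.137, and with its absolute size 0.219.

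The mean intensity after trimming 2% from each end was 500.2 for each first-type array and 500.1 for each second-type array. Scaling can set such a value, so it does not show that the arrays were alike. Medians of the probe sets tested were 87.67 and 80.05 in pentamidine and 75.35 and 79.27 in DMSO on the first type. On the second type they were 163.9 and 138.5 in pentamidine and 142.7 and 134.3 in DMSO. Pairs of arrays correlated over log2 values across probe sets at 0.972 to 0.982 (first type) or 0.829 to 0.860 (second type). Each gene of this and the other gene lists was read by 1 probe set per array type, and its other probe sets are not given. Of the 10 markers of 786-O cells and renal carcinoma measured on the first type, which had 29 probe sets, 9 lay above the median level of all probe sets in DMSO. PAX8, a renal lineage transcription factor, averaged 1877 units in pentamidine and 1962 in DMSO. The exception was PAX2, another renal lineage factor, at 38.6 units in pentamidine and 64.5 in DMSO. None of the 4 leukocyte, 4 endothelial or 3 erythroid marker genes lay above that median, and 1 of the 4 stromal genes did, LUM, a matrix proteoglycan. Of the markers of the neurons that use olfactory receptors, OMP, the olfactory marker protein, averaged 1.91 units in pentamidine and 1.02 in DMSO, GNAL 12.4 units in pentamidine and 18.9 in DMSO, and ADCY3, which many tissues express, 167 units in pentamidine and 224 in DMSO. On the second array type the erythroid gene ALAS2 lay above the median level in DMSO, at 301.5 units in pentamidine and 247.4 in DMSO. CDH6 and EGLN3 of the renal carcinoma list also lay above it there, while VWF (endothelial), COL3A1 and DCN (stromal) did not. On that type the 3′ to 5′ signal ratio of GAPDH was 0.716 and 0.677 in pentamidine, against 0.843 and 0.806 in DMSO. That of ACTB was 1.23 and 1.21 in pentamidine, against 1.47 and 1.27 in DMSO. These ratios, a measure of RNA integrity, were lower on both pentamidine arrays, and their part in the results on that type was not tested. With 2 arrays per group, the number of arrays limits the precision of every value.

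The level of the olfactory receptors was low on the first array type. Every one of the 40 probe sets had a mean under the median of all 22215 probe sets tested, in pentamidine and in DMSO. In RNA of whole cultures, fewer cells that use a gene and less RNA per cell cannot be told apart. The members' median intensity was 12.3 units in pentamidine and 9.27 units in DMSO, against 84.1 units in pentamidine and 78.1 units in DMSO over all probe sets tested. In each group 27 of the 40 lay under the table's first quartile, and 13 in pentamidine and 12 in DMSO under its 10th percentile. Mean DMSO intensities ran between 1.14 and 49.3 units, and no single value on any array exceeded 65.6 units. Over the 4 arrays 24 probe sets stayed under 30 units. On each array, too, all 40 lay under that array's median, with member medians of 6.24 and 11.9 units in pentamidine and of 5.98 and 7.27 units in DMSO.

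The highest DMSO means on the first array type belonged to OR2H2, OR1G1, OR12D3, OR12D2, OR3A3 and OR2J3. Except for OR1G1 and OR3A3, which lie on chromosome 17, these are receptors of the chromosome 6 cluster. OR12D3 measured 2.34 and 54.8 units in pentamidine and 20.3 and 29.0 in DMSO, and OR12D2 measured 14.1 and 60.0 in pentamidine and 8.96 and 32.3 in DMSO. In both genes the pentamidine duplicates lay further apart than the DMSO duplicates, and the groups overlapped. The lowest means over the 4 arrays belonged to OR3A1, reported to respond to helional, OR2J2 by 1 of its 2 probe sets, and OR6A2, reported to respond to aldehydes. OR3A1 measured 1.93 and 1.63 units in pentamidine and 1.42 and 0.860 in DMSO. OR6A2 measured 3.98 and 3.25 units in pentamidine, against 1.43 and 1.96 in DMSO.

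**Figure D1:**
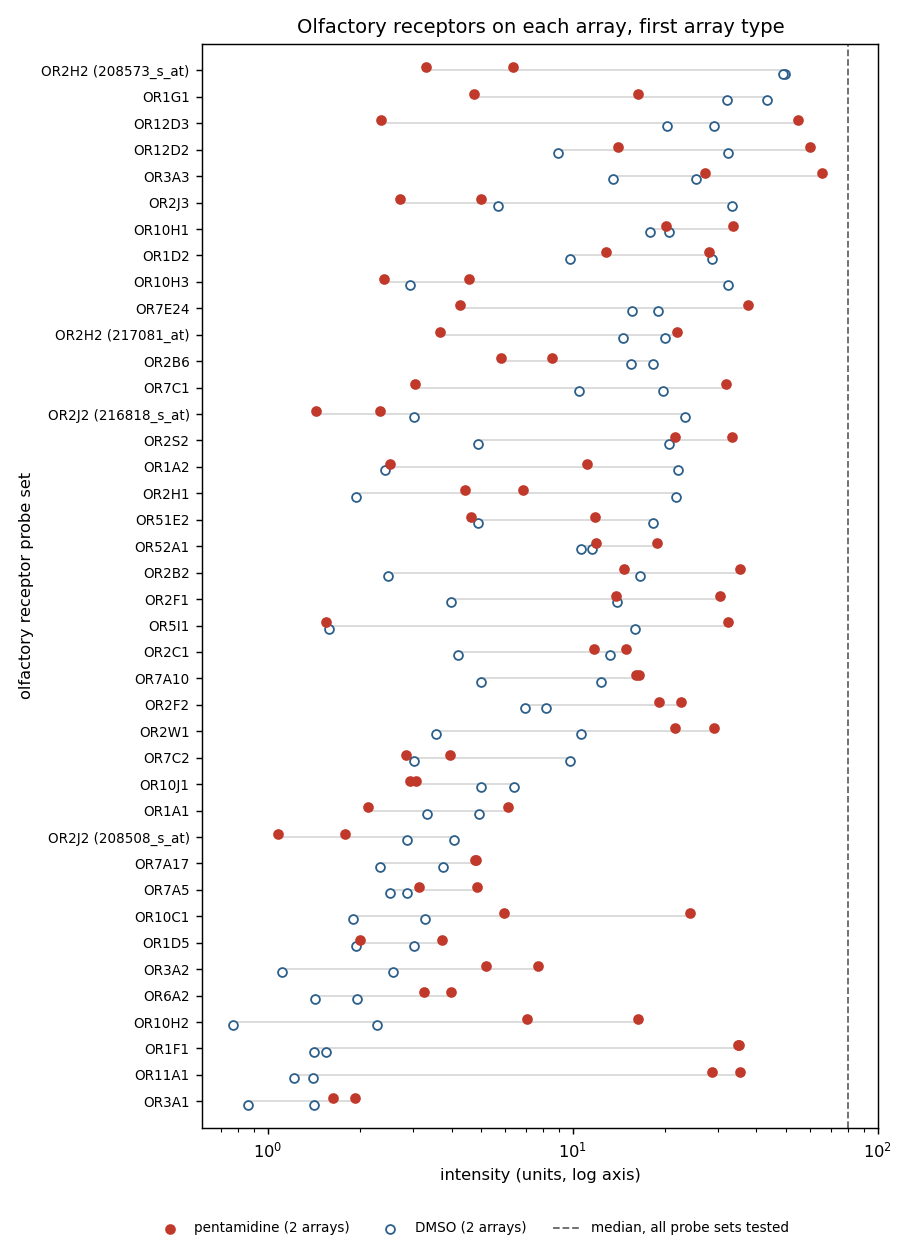
Intensity of each olfactory receptor probe set on the 4 arrays of the first type, on a log axis in array units, sorted by mean DMSO intensity; filled points are pentamidine arrays, open points DMSO arrays, and the dashed line is the median of all probe sets tested (median of the 4 arrays, 79.7 units). All points lie left of the line, the 2 pentamidine points of OR1F1 coincide near 35 units, and OR2H2 by 208573_s_at lies lower in pentamidine than in DMSO.

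The second array type gave a different picture. Of its 20 olfactory receptor probe sets 14 lay under the table median in each group, 6 lay above it, and 0 lay above its upper quartile. The 6 were not the same ones in both groups: 10 of the 20 lay under the median in pentamidine and in DMSO, and 2, OR51J1 and OR2A4, lay above it in both. Their median intensity was 102 units in pentamidine and 100.1 units in DMSO, against 141.6 units in pentamidine and 128.5 units in DMSO over all 22577 tested. A level under the table median in both groups was thus found for every one of the 40 members earlier, but for 10 of 20 here. That rule cannot decide whether a gene is silent, since 11288 of all 22577 lay under the median in each group by definition. The share of all probe sets under it in both groups is not given, and detection calls were not used. Whether the genes were silent was therefore not tested on either array type. Mean DMSO intensities ran between 11.2 and 172 units, while single values ran from 8.05 to 457 units. Intensities of the 2 types were scaled apart and are not compared gene by gene.

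Single arrays of the second type often put the same probe set at opposite ends of this range. In 12 of the 20 at least 1 array read under 30 units and another over 100, which 33.0% of all probe sets tested on that type also showed. OR51I1, a class I receptor, measured 27.9 and 185 units in pentamidine and 325 and 19.7 in DMSO. OR2B3, of the chromosome 6 cluster, measured 14.5 and 304 units in pentamidine and 11.0 and 218 in DMSO. OR51B5, beside the beta-globin genes, measured 21.8 and 226 units in pentamidine and 8.80 and 178 in DMSO. In these 3 genes each group held 1 low and 1 high array. Pentamidine 1 was the low one in all 3, while among the DMSO arrays DMSO 1 was low in OR2B3 and OR51B5 and DMSO 2 in OR51I1. OR51J1, the annotated pseudogene, was the exception with all 4 arrays over 100 units, at 188 and 176 in pentamidine and 182 and 137 in DMSO. OR51M1 was the 1 member of this type under 30 units on every array, at 23.9 and 14.3 in pentamidine and 18.8 and 15.9 in DMSO.

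**Figure D2:**
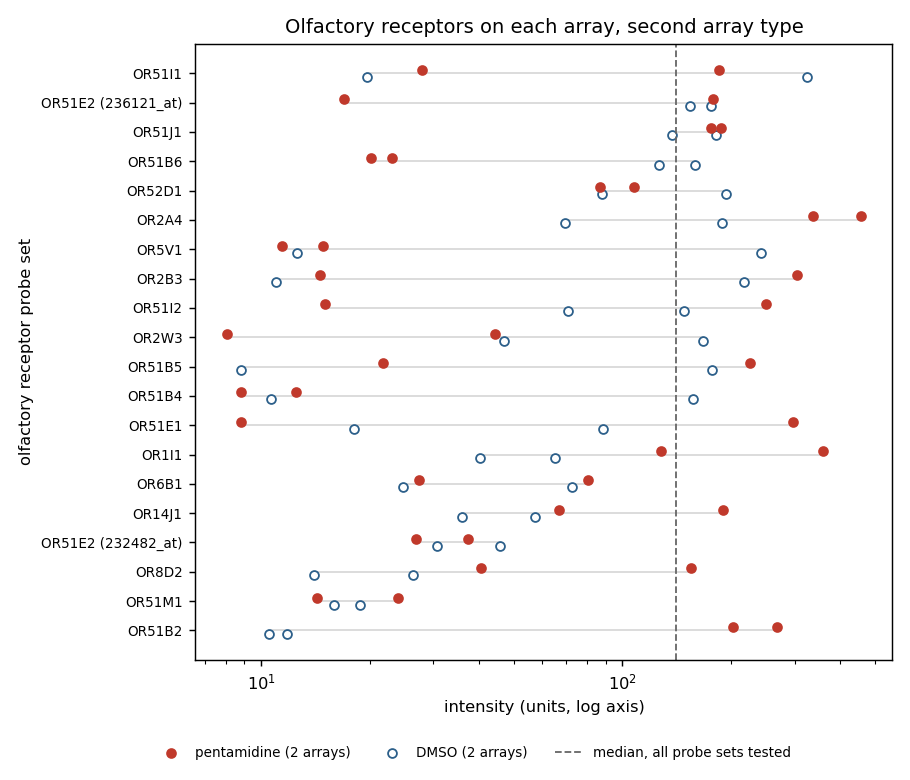
Intensity of each olfactory receptor probe set on the 4 arrays of the second type, drawn as for the first type, with the median of all probe sets tested at 141 units. Many rows hold 1 low and 1 high point of the same colour, and OR51B2 and OR51B6 show the groups apart in opposite directions.

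**Figure D3:**
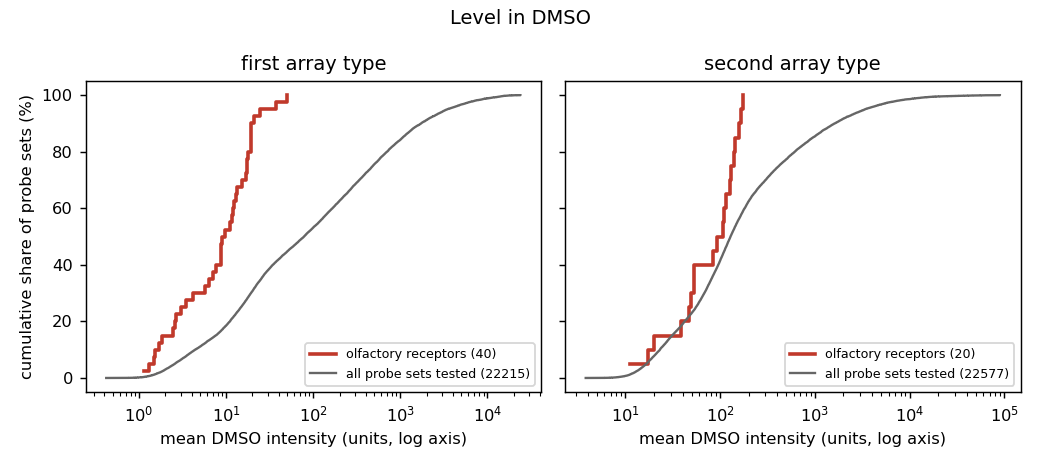
Cumulative share of probe sets (vertical axis) against mean DMSO intensity in array units (log axis), for the olfactory receptors and for all probe sets tested, on each array type. On the first type the receptors' median is 9.27 units and that of all probe sets 78.1, on the second 100.1 and 128.5 units.

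The spread between the DMSO duplicates was taken as the absolute difference of log2(intensity + 16). Adding 16 units damps differences among the dimmest values. On the first array type its median over the members was 0.27, against 0.25 over all probe sets tested, and 5 of 40 duplicates (12.5%) were at least 2-fold apart, against 7.4% of all. The largest was that of OR10H3, at 2.91 and 32.2 units, followed by OR2J3, at 33.1 and 5.67 units, OR2H1, at 21.8 and 1.94 units, and OR1A2, at 22.1 and 2.41 units. Neither DMSO array was high throughout, since 19 members were higher on DMSO 1 and 21 on DMSO 2. At the other end OR1F1 and OR2H2 by 208573_s_at had duplicates that differed by 0.01 on the log2 scale.

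On the second array type the median DMSO duplicate difference was 0.96 on the log2 scale for the members, against 0.58 for all probe sets tested. The spread was widest in the middle of the range. Over all probe sets the median DMSO duplicate difference was 0.43 in decile 1 of level, the lowest, 1.20 in decile 4 and 0.18 in decile 10. The members lay in deciles 1 to 7. Of their DMSO duplicates 10 of 20 (50.0%) were at least 2-fold apart, against 33.0% of all, and 5 of 20 were at least 4-fold apart, against 12.3% of all. The same 5, OR51I1, OR5V1, OR2B3, OR51B5 and OR51B4, had 1 DMSO array under 30 units and the other over 100, against 12.2% of all probe sets. OR5V1, of the chromosome 6 cluster, measured 11.5 and 14.9 units in pentamidine, against 242 and 12.6 in DMSO. OR51B4, a class I receptor, measured 8.83 and 12.5 units in pentamidine, against 10.7 and 157 in DMSO. In each, DMSO held 1 high array, and the other 3 arrays lay close together.

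**Figure D4:**
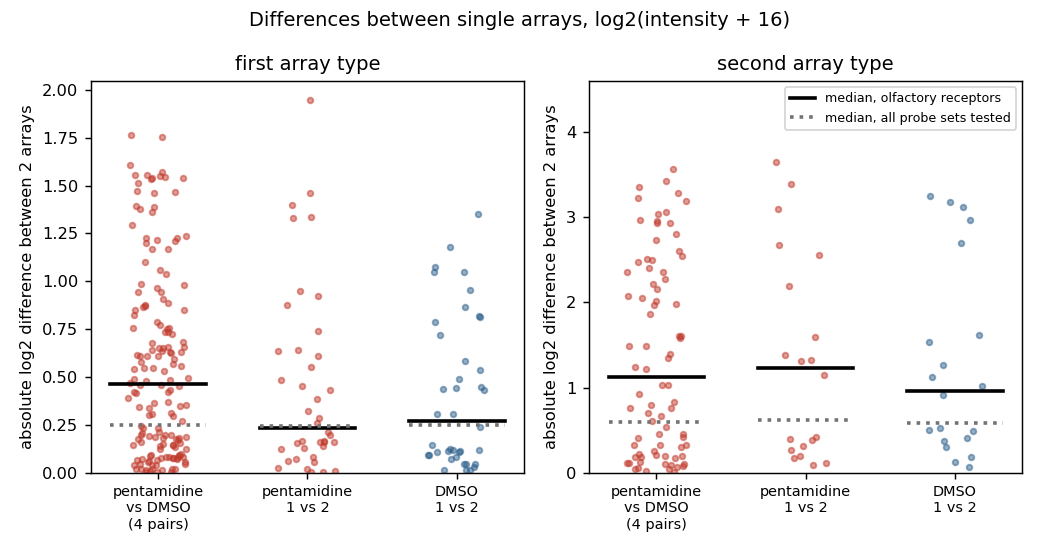
Absolute differences between single arrays in log2(intensity + 16), for the olfactory receptors and for all probe sets tested: between the 2 pentamidine arrays, between the 2 DMSO arrays, and over the 4 pairs of a pentamidine and a DMSO array. Points are receptor probe sets, solid bars their medians and dotted bars the medians of all probe sets tested. For the receptors the medians over those pairs are 0.47 (first type) and 1.12 (second type).

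The comparison of pentamidine with DMSO called no olfactory receptor on either array type. By limma with Benjamini-Hochberg adjustment over the whole table at 0.05, 0 of 40 and 0 of 20 passed, and 0.0% of all probe sets passed on each type. The smallest adjusted p among the members was 0.621 for the first type and 0.499 for the second, which were also the smallest of the whole tables. At an unadjusted p under 0.05, 7 of 40 (17.5%) passed on the first type, against 5.49% of all, and 3 of 20 (15.0%) on the second, against 7.01% of all. With a variance trend in limma's eBayes these counts were 4 of 40, against 4.71% of all, and 2 of 20, against 4.68% of all, and again no member passed after adjustment, while 2 of all 22577 (0.00886%) did on the second type. An exact test of a single probe set with 2 arrays against 2 cannot give a two-sided p below 0.333, so none was made.

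On the first array type 23 of the 40 lay above DMSO and 17 below, a share of 57.5%, against 55.2% of all probe sets. The members' median log2 fold change was 0.08, against 0.03 over all, and median centring of each array took it to -0.01. That median was 0.16 without pentamidine 1, 0.05 without pentamidine 2, 0.15 without DMSO 1 and 0.06 without DMSO 2. Their median absolute log2 fold change was 0.29, against 0.20 over all, and 0.47 without pentamidine 2. The middle of the distribution, from the 10th to the 90th percentile, ran from -0.61 to 0.70 for the members, against -0.37 to 0.53 for all. Of the 40, 4 (10.0%) were at least 2-fold from DMSO, against 2.48% of all, 2 above DMSO, against 1.76% of all, and 2 below, against 0.711% of all. That count was higher with each array left out in turn. With 1 array in a group differences vary more, and no share over all probe sets is given for those fits. Those counts and the value of 0.47 are therefore not comparable with the values over all probe sets. Over all probe sets the share at least 2-fold from DMSO was 0.0%, 1.44%, 9.91% and 9.05% in deciles 1 to 4 of level, which held all 40 members.

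The groups did not overlap for 22 of the 40 members, or 55.0%, against 34.7% of all probe sets. They lay above DMSO in 15, against 20.0% of all, and below in 7, against 14.7% of all. The count of 22 fell to 19 with quantile normalization and to 17 with median centring. No share over all probe sets is given beside those 2 counts. In those 4 deciles of level between 32.4% and 34.5% of all probe sets were without overlap. A random order of 2 arrays against 2 gives 33.3%, so shares near it say little about level. The part of level in the members' share was not tested. The absolute fold change exceeded both duplicate differences in 14 of the 40, or more than either group's own spread, against 21.0% of all probe sets. Across the 4 pairs of a pentamidine and a DMSO array the median absolute log2 difference over the members ran from 0.31 to 0.63, against 0.20 to 0.30 over all probe sets, while the members' 2 pentamidine arrays differed by 0.24 and their 2 DMSO arrays by 0.27. All 4 of the pairs across treatments thus differed more than the duplicates, although the closest, pentamidine 2 and DMSO 1, did so by little. These probe sets share the same 4 arrays and cluster in a few gene families, so they are not independent of each other, and the shares carry no test.

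The largest difference above DMSO on the first array type was that of OR1F1, a class II receptor on chromosome 16, whose promoter is printed above. It measured 34.9 and 35.1 units in pentamidine, against 1.56 and 1.42 units in DMSO. The groups were far apart and the duplicates of each group nearly coincided, at levels that lie under the table median in both groups. The log2 fold change was 1.54 (95% interval 1.11 to 1.98), with an adjusted p of 0.621 by limma. With an offset of 64 in place of 16 it was 0.60 and with an offset of 1 it was 3.86. The 95% interval was wider with a variance trend, at 0.76 to 2.33.

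OR11A1, of the chromosome 6 cluster, measured 35.2 and 28.7 units in pentamidine, against 1.40 and 1.22 units in DMSO. Its groups did not overlap, and the log2 fold change was 1.47 (95% interval 0.99 to 1.94), or 0.55 with an offset of 64 (adjusted p 0.621 by limma). A variance trend widened the interval to 0.69 to 2.24. OR2H1, whose promoter window overlaps that of OR11A1 on the other strand, measured 6.87 and 4.44 units in pentamidine and 21.8 and 1.94 in DMSO. Its groups overlapped, with a log2 fold change of -0.27 (95% interval -1.40 to 0.86) that was 0.27 without DMSO 1. OR7C1 and OR7A5 on chromosome 19 share 1 whole 300-base window, and their log2 fold changes were -0.03 and 0.10.

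OR2H2, another receptor of that cluster, lay below DMSO by 1 of its probe sets. By 208573_s_at it measured 6.35 and 3.30 units in pentamidine, against 49.6 and 49.0 units in DMSO. The DMSO duplicates nearly coincided, and the log2 fold change was -1.65 (95% interval -2.13 to -1.17), or -0.72 with an offset of 64 (adjusted p 0.621 by limma). A variance trend widened the interval to -2.55 to -0.76. The other probe set, 217081_at, measured 3.67 and 22.0 units in pentamidine, against 20.1 and 14.6 units in DMSO. Its groups overlapped, and its log2 fold change was -0.28 (95% interval -1.31 to 0.75). OR1G1, a broadly tuned receptor of the chromosome 17 cluster, measured 4.74 and 16.4 units in pentamidine, against 31.9 and 43.2 in DMSO. Its groups did not overlap and its log2 fold change was -1.04 (95% interval -1.85 to -0.23).

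Among the other members far from DMSO on the first type the differences were smaller than 2-fold on the log2(intensity + 16) scale. That scale damps differences among dim values, so ratios of the plain intensities can be larger. OR2W1, a broadly tuned receptor of the chromosome 6 cluster, measured 29.0 and 21.6 units in pentamidine, against 3.55 and 10.6 in DMSO, a log2 fold change of 0.85. OR3A3 had 0.76, OR2B2 0.69 and OR10C1 0.68 on that scale, with 95% intervals that included 0 in all 3. In OR10C1, with 5.94 and 24.2 units in pentamidine and 3.28 and 1.91 in DMSO, most of the difference came from pentamidine 2. Below DMSO were OR2J3 at -0.72, OR10H3 at -0.63, OR2J2 by 216818_s_at at -0.61 and OR2B6 at -0.51. OR2B6 measured 8.51 and 5.83 units in pentamidine, against 15.6 and 18.3 in DMSO, without overlap. OR10H3 and OR2J2 by that probe set rested on the high DMSO 2 array, and OR2J3 on the high DMSO 1 array. The second probe set of OR2J2, 208508_s_at, measured 1.79 and 1.08 units in pentamidine, against 4.08 and 2.85 in DMSO, a log2 fold change of -0.16.

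By chromosome, the 13 probe sets of the chromosome 6 cluster on the first type had 5 above DMSO and 8 below, with log2 fold changes from -1.65 to 1.47 and a median absolute value of 0.61. Those of chromosome 17 had 5 of 8 above DMSO, with a median absolute log2 fold change of 0.16, and those of chromosome 19 had 5 of 9 above, with 0.19. Neighbouring receptors of 1 cluster thus lay on both sides of DMSO. Probe sets with the suffix _s_at, which can match several transcripts, had 4 of 10 above DMSO, and those with the plain suffix _at had 19 of 30.

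On the second array type 11 of the 20 lay above DMSO and 9 below, a share of 55.0%, against 52.1% of all probe sets. The median log2 fold change was 0.08, against 0.03 over all, and median centring took it to -0.03. Without pentamidine 2 it was -0.24 and without DMSO 2 it was -0.00270. The median absolute log2 fold change was 0.82, against 0.45 over all. It was 1.26 without pentamidine 1, 1.35 without pentamidine 2, 1.23 without DMSO 1 and 1.04 without DMSO 2. No value over all probe sets is given for those fits. In the fit to all 4 arrays 10 of the 20 (50.0%) were at least 2-fold from DMSO, against 22.8% of all. Of these 5 lay above DMSO, against 12.8% of all, and 5 below, against 9.93% of all. Over all probe sets the share at least 2-fold from DMSO was 6.11% in decile 1 of level, between 25.8% and 40.8% in deciles 2 to 7, and 0.0886% in decile 10. The groups did not overlap for 7 of the 20 (35.0%), against 33.9% of all, a share near the background. They lay above DMSO in 5, against 18.0% of all, and below in 2, against 15.9% of all. That count was 15 without either pentamidine array, 10 without DMSO 1 and 14 without DMSO 2. With 1 array in a group, overlap requires that array to lie between the other 2, so groups stay apart more often by design. The counts with an array left out are therefore not comparable with the 7 of 20 or the 33.9%. The absolute fold change exceeded both duplicate differences in 4 of the 20, against 20.8% of all probe sets.

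Between single arrays of the second type, a pentamidine and a DMSO array differed in absolute log2 value by a median of 1.12 over the members, between 0.46 and 1.79 by pair. The 2 pentamidine arrays differed by 1.23 and the 2 DMSO arrays by 0.96, so the differences across treatments were about as large as those between duplicates. At least 2-fold apart were 42 of 80 differences across treatments (52.5%), 11 of 20 between the pentamidine duplicates (55.0%) and 10 of 20 between the DMSO duplicates (50.0%). Over all probe sets these shares were 34.0%, 35.1% and 33.0%.

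OR51B2, a class I receptor beside the beta-globin genes, had the largest log2 fold change of the members on this type. It measured 267.9 and 202 units in pentamidine, against 10.5 and 11.8 units in DMSO. Both pentamidine arrays were above the table median and both DMSO arrays were under the 10th percentile. The log2 fold change was 3.20 (95% interval 2.15 to 4.25), or 1.98 with an offset of 64, with an adjusted p of 0.499 by limma. With a variance trend the interval was 0.73 to 5.66 and limma's adjusted p was 0.922.

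OR51B6, a neighbour in the same cluster, lay on the other side. It measured 20.2 and 23.1 units in pentamidine, against 159 and 126 units in DMSO, with a log2 fold change of -2.07 (95% interval -3.09 to -1.04), or -1.26 with an offset of 64 (adjusted p 0.499 by limma). With a variance trend the interval included 0, from -4.48 to 0.35. OR51B4 and OR51B5, also of this cluster, had log2 fold changes of -1.35 and 0.47 and overlapping groups. The 4 OR51B genes thus split evenly between the sides of DMSO.

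The other differences of at least 2-fold on the second type were accompanied by wide duplicate differences. OR1I1, a class II receptor on chromosome 19, measured 360 and 128 units in pentamidine, against 64.9 and 40.4 in DMSO, a log2 fold change of 1.78 (95% interval 0.01 to 3.56). OR2A4, on chromosome 6, measured 337 and 457 units in pentamidine, against 188 and 69.3 in DMSO, a log2 fold change of 1.63 (95% interval -0.02 to 3.28). OR8D2 measured 155 and 40.7 units in pentamidine, against 14.0 and 26.4 in DMSO, a log2 fold change of 1.47. In all 3 the groups did not overlap, but at least 1 duplicate pair lay 2-fold or more apart. OR14J1 had a log2 fold change of 1.08. Below DMSO, OR5V1 had -1.56, OR2W3 -1.50, OR51B4 -1.35 and OR51E2 by 236121_at -1.17, with 95% intervals that all included 0.

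**Figure D5:**
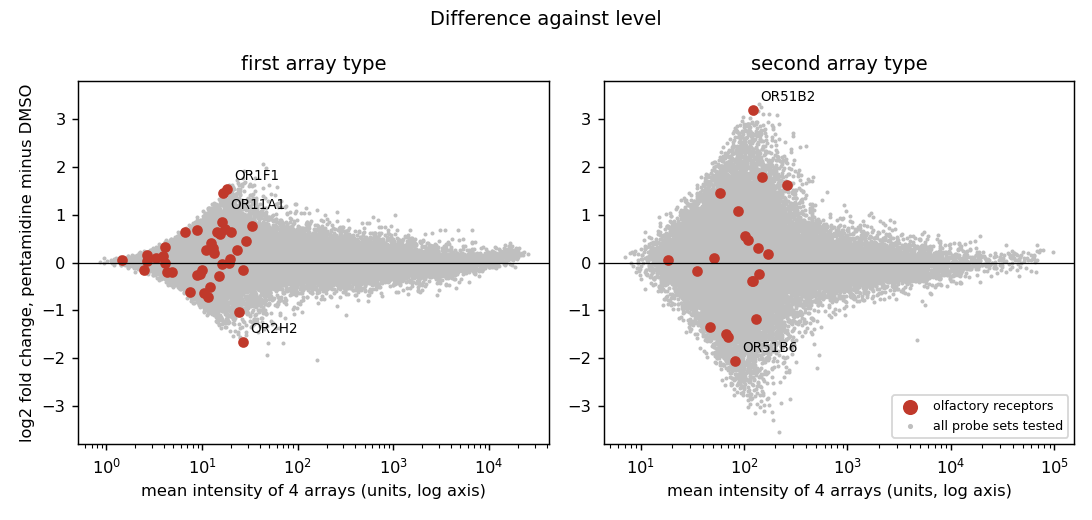
Log2 fold change of pentamidine minus DMSO, on log2(intensity + 16), against the mean intensity of the 4 arrays (log axis) for the olfactory receptors over all probe sets tested, on each array type. The receptors lie in or at the edge of the cloud of dim probe sets, with OR1F1 at 1.54, OR11A1 at 1.47 and OR2H2 at -1.65 in the left panel and OR51B2 at 3.20 and OR51B6 at -2.07 in the right panel.

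OR51E2 and OR51E1, the class I receptors known from prostate epithelium, had mean DMSO levels within the range of the other members. By 236121_at on the second type, OR51E2 was among the 6 highest, at a DMSO mean of 165 units. The table median there was 128.5 units. OR51E2 measured 4.64 and 11.9 units in pentamidine and 18.3 and 4.88 in DMSO on the first type, with a log2 fold change of -0.16 (95% interval -1.07 to 0.75). On the second type its probe set 232482_at measured 37.3 and 26.8 units in pentamidine and 46.0 and 30.8 in DMSO, with -0.17 (95% interval -1.28 to 0.93). Its other probe set, 236121_at, measured 17.0 and 179 units in pentamidine and 154 and 176 in DMSO, with -1.17 (95% interval -3.92 to 1.57). Pentamidine 1 alone was low there, and without it the value was 0.11. OR51E1 measured 296 and 8.80 units in pentamidine and 88.3 and 18.1 in DMSO, so its log2 fold change of 0.56 (95% interval -3.55 to 4.67) came with a pentamidine array at each end of the members' range. OR1D2, the receptor known from sperm, measured 12.8 and 28.0 units in pentamidine and 28.5 and 9.81 in DMSO on the first type, with overlapping groups.

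The genes of olfactory signalling were read beside the receptors. The list of 21 genes had 14 measured on the first array type, with a median intensity of 33.0 units in pentamidine and 23.4 units in DMSO, and 4 of them lay above the table median in DMSO. These 4, ADCY3, KDM1A, PDE4A and RIC8B, have roles outside olfactory neurons too. Of the 14, 9 lay above DMSO and 5 below, and 0 passed the adjusted threshold in either direction. CNGB1, the channel subunit, measured 29.1 and 1.77 units in pentamidine, against 1.81 and 1.19 in DMSO, and EMX2, a transcription factor of the olfactory epithelium, 60.4 and 9.70 in pentamidine, against 7.85 and 3.36 in DMSO. In both, pentamidine 1 alone was high. ANO2, also of the list, measured 25.6 and 19.05 units in pentamidine, against 12.9 and 8.74 in DMSO, with both pentamidine arrays higher. Its log2 fold change was 0.51 (95% interval -0.028 to 1.055). The ANO2 probe set on the second type gave 0.57, with overlapping groups. On the second type 6 genes of the list were measured, by 11 probe sets of which 1 per gene was read. Of these genes 3 lay above DMSO and 3 below, with 0 called. PDE1C, a phosphodiesterase of olfactory cilia and of other cells, measured 34.3 and 20.4 units in pentamidine, against 145 and 261 in DMSO there, a log2 fold change of -2.30, while its probe set on the first type gave -0.05.

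Taste, trace amine and vomeronasal receptors are likewise expected to be silent in kidney cells. On the first array type 14 such genes had a median of 13.4 units in pentamidine and 11.3 in DMSO, and 0 of them lay above the table median in DMSO. Their median absolute log2 fold change was 0.28, against 0.29 for the olfactory receptors, and their median DMSO duplicate difference 0.83, against 0.27. Of the 14, 9 lay above DMSO and 5 below. On the second type 5 such genes had a median of 160 units in pentamidine and 49.4 in DMSO, against 102 units in pentamidine and 100.1 in DMSO for the olfactory receptors. Of the 5, 2 lay above the table median in DMSO, the taste receptor TAS2R14 at 411 units and VN1R95P, a vomeronasal pseudogene, at 229 units. The TAS2R14 probe set on the first type averaged 8.10 units in DMSO, under the table median there. Relative to DMSO 4 of the 5 genes on the second type lay above and 1 below, with 0 called. VN1R3, a vomeronasal receptor, measured 139 and 181 units in pentamidine, against 29.2 and 43.5 in DMSO, a log2 fold change of 1.75 (95% interval 0.64 to 2.86). Retina genes on the first type, 5 of a list of 8, had a median of 4.69 units in pentamidine and 15.3 in DMSO, with 3 above DMSO and 2 below, none called.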

How the data were processed

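The authors deposited linear probe set intensities. The submitters' processing notes name Affymetrix Expression Console, and the algorithm is not given in the sources used here. Detection calls were not used. Probe sets were named from the platform annotation, and their genes were located in the RefSeq table for GRCh38.p14, which also gave the promoters.

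The 62 and 88 control probe sets were left out. Log2(intensity + 16) was fitted over all others with limma 3.58.1 (lmFit, then eBayes) under R 4.3.3, for each array type apart, without a block and with Benjamini-Hochberg adjustment. No filter on low values was used, since the 30th percentile of level would keep 6 of 40 and 13 of 20 members. The fit was tested on simulated data. Fold changes are on the log2(intensity + 16) scale and understate changes of dim probe sets. Alternatives were other offsets, normalizations, variance models, a filter, a threshold, a replicate block, other member rules and leaving out each array.

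Named members were, per array type, the 6 highest by DMSO mean, the 6 furthest above and 6 furthest below DMSO by log2 fold change, the 4 with the widest DMSO duplicates, the 3 lowest by mean level, genes with several probe sets, and OR51E1, OR51E2, OR2H2 and OR51B2. OR1D2, OR7C1 and OR7A5, which share a promoter window, the neighbours in the OR51B family and some members of the other lists were named for their known role or position. The members and lists were chosen with earlier results of these data known. Replicate numbers were checked for pairing by the correlation of their differences between groups, 0.00479 (first type) and 0.0113 (second type), so they were not treated as pairs.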

Additional observations from a re-analysis of the deposited data

How the results depend on the processing

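No member was called under any alternative run, the adjusted threshold of 0.1, the variance trend and the robust prior included, and the fit with the replicate number as a block also called 0 of 40 and 0 of 20. On the first array type an offset of 1 took the members' median log2 fold change to 0.40, its median absolute value to 0.84, the DMSO duplicate difference to 0.66 and the count at least 2-fold from DMSO to 17, and an offset of 64 took that count to 0. The 30th percentile filter, with 6 members, gave a median absolute value of 0.61, 2 members at least 2-fold from DMSO and 3 without overlap. On the second type the count at least 2-fold from DMSO was 4 with an offset of 64 and 6 with the filter. Leaving out each array in turn gave 5 to 9 members at least 2-fold from DMSO on the first type and 10 to 15 without overlap on the second. The median log2 fold change then ran from 0.05 to 0.16 and its absolute value from 0.30 to 0.47 on the first type, and from -0.24 to 0.12 and from 1.04 to 1.35 on the second. No value over all probe sets is given for these offsets, the filter or the fits with an array left out. The counts and medians under them are therefore not comparable with the values over all probe sets. They do not show whether the receptors moved more than other dim probe sets. With 1 array in a group, groups also stay apart more often by design. The 10 to 15 are therefore not comparable with the count from all 4 arrays. Some named members changed sign. An offset of 64 did this for OR12D3 (0.00394), median centring for OR3A1 (-0.0440) and OR51M1 (-0.0495), and quantile normalization for OR51M1 (-0.0196). With each array left out the log2 fold changes ran from -0.76 to 0.19 for OR2H2 by 217081_at, -0.52 to 0.20 for OR51E2 by 221424_s_at, -0.38 to 0.0304 by 232482_at and -2.45 to 0.11 by 236121_at. They ran from -1.14 to 0.81 for OR12D3, -0.76 to 0.28 for OR1A2, -0.21 to 1.13 for OR12D2, -0.81 to 0.27 for OR2H1, and -1.31 to 0.0409 for OR10H3. On the second type they ran from -1.27 to 2.39 for OR51E1, -1.86 to 1.40 for OR51I1, -0.14 to 0.26 for OR51M1, -1.94 to 1.15 for OR51I2, -1.02 to 1.95 for OR51B5, -1.38 to 2.01 for OR2B3, -0.89 to 0.12 for OR52D1, -3.15 to 0.0279 for OR5V1 and -0.00277 to 0.36 for OR51J1. The cause of these changes was not tested.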

Other observations

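Probe sets that the naming rule left out, because their symbol marks a pseudogene or because several symbols share them, numbered 14 on the first array type and 5 on the second. On the first type 10 of them lay under the array median on all 4 arrays and 2 above it on all 4, and on the second 1 lay under and 1 above on all 4. On the first, a probe set shared by OR2F2 and OR2F1 measured 16.3 and 17.6 units in pentamidine, against 2.48 and 1.35 in DMSO, or 0.88 as log2 fold change (95% interval 0.43 to 1.33), with limma's adjusted p at 0.621. The probe sets of OR2F2 and OR2F1 alone had 0.65 and 0.61. Of those above the array medians throughout, 1 shared by OR7E35P, OR7E18P and OR7E47P measured 132.7 and 81.0 units in pentamidine, against 160.5 and 107.6 in DMSO. A probe set shared by OR2A9P and OR2A20P measured 205 and 270.3 units in pentamidine, against 201.3 and 147 in DMSO. On the second type a probe set shared by OR2A5, OR2A20P and OR2A9P measured 491 and 644 units in pentamidine, against 479 and 355 in DMSO, above the array medians throughout and above every member in mean DMSO level. Another probe set of OR2A genes there, shared by OR2A7, OR2A4 and ARHGEF34P, measured 188 and 22.3 units in pentamidine, against 14.2 and 7.81 in DMSO. None of these passed the adjusted threshold. OR52K3P, a class I pseudogene, measured 57.3 and 151 units in pentamidine, against 9.64 and 38.9 in DMSO, a log2 fold change of 1.56 (95% interval -0.33 to 3.45).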
